A study of Mus musculus with 15 samples.

Results

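Chromatin accessibility around Sox9 was examined in an 800 kb window of mouse chromosome 11, in organoid lines grown from liver metastases and primary tumours of transplanted colon cancer. The window comprised every region of the deposited table that overlapped 112.2 to 113 Mb of chromosome 11 in the mm9 build, where Sox9 lies near 112.64 Mb, the position used below as its anchor. It held 32 of the table's 43020 regions, and all 32 had enough counts to be tested. Members were chosen by position and not by signal. All 15 lines carried the genotype labelled AKP and came from C57Bl6 recipient mice. Tumour organoids had been passed through the colons of mice for 3 rounds, and each group held 3 lines. The metastasis groups Met1, Met2 and Met3 came from the liver after rounds 1, 2 and 3, and the groups Primary2 and Primary3 from the tumour at the primary site after rounds 2 and 3. No primary group of round 1 was analysed here. The sources used here do not give the descent of the lines. P-values therefore measure only the spread among these lines.

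Sox9 encodes a transcription factor with an HMG-box DNA-binding domain. In the intestine it is expressed in the crypt base, where stem cells and Paneth cells reside, it responds to Wnt signalling, and mouse Paneth cells require it. In colorectal cancer it is widely studied as a gene of stem-like, poorly differentiated cells. The gene stands alone in a long stretch with few other coding genes, and in other tissues such as cartilage and testis distant enhancers in that stretch are known to control it. In the order of genes in RefSeq (GRCm38.p6), Sox9 was flanked by the long noncoding RNA genes BC006965 and Gm11681. The nearest protein-coding entries were Gm11677 before it and Slc39a11, which encodes a zinc transporter, after it. No mm9 gene annotation was used, so the regions are named by position and peak number and are assigned to no exon, intron or UTR. For the same reason the colon identity of the lines was not checked against marker loci here.

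The assay was ATAC-seq, which tags open chromatin with a transposase. Values are CPM, counts scaled to a common library depth after TMM, a correction for differences in composition between libraries. Library totals ran from 285633 to 5916109 counts, and between 291 and 7321 of these fell in the Sox9 window. The shallowest line, Primary3 replicate 2, had a median of 4 counts per region of the window and 0 counts at 6 regions, and a single count there was worth 3.19 CPM. The next shallowest, Met1 replicate 1, had a median of 13.5 counts. The other 13 lines had medians between 16.5 and 74. Met2 replicate 1 stood apart from its group at single regions, as given below.

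The regions fell into 4 stretches when a gap of more than 30 kb was taken to end a stretch, a division made after the positions were seen. A single region, peak_16832, was centred at -162.9 kb from the anchor. No other region lay before the anchor, and the 165.2 kb between peak_16832 and the next region was the longest gap between neighbouring regions, while the first 276.9 kb of the window held none. A proximal block of 11 regions ran from 112642543 to 112718484, a middle block of 3 regions from 112763872 to 112783573, and a distal block of 17 regions from 112849027 to 112965159. The distal block held 81.6% of the window's mean signal and the proximal block 13.4%. The last region, peak_16888, lay 34.8 kb from the end of the window.

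Signal was highest far from the gene. Per kilobase of region, the strongest members were peak_16882 (123 CPM per kb), peak_16881 (114) and peak_16888 (82.7), centred 282.5 to 323.7 kb beyond the anchor, against a median of 16.9 CPM per kb over the 32 regions and 18.5 over all tested regions. By total signal peak_16888 led with 237 CPM over 2869 bp, which was 22.8% of the window. The region closest to the anchor, peak_16843, held 38.4 CPM over 1832 bp, or 21.0 CPM per kb, a density close to that of the median tested region. The 6 strongest members by total signal, peak_16888, peak_16880, peak_16882, peak_16881, peak_16887 and peak_16883, together held 61.3% of the window's signal and all lay in the distal block.

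**Figure D1:**
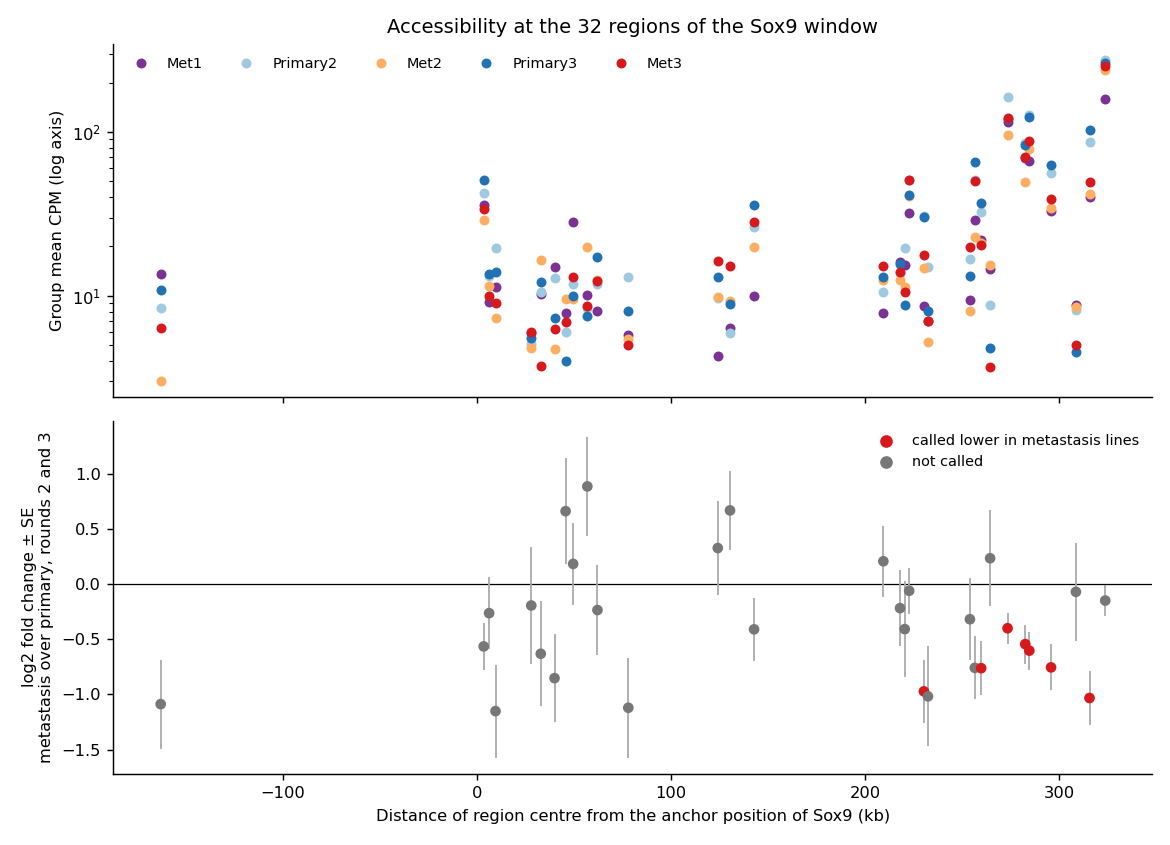
Top, mean CPM of each group (3 lines each, log axis) at the 32 regions against the distance of the region's centre from the anchor of Sox9, in kb. Bottom, log2 fold change ± SE of metastasis over primary lines in rounds 2 and 3 together, where 25 of 32 points lie below 0 and the 7 called regions, in red, all lie at least 230.3 kb from the anchor.

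Summed over the 32 regions, every metastasis group had a lower mean signal than either primary group. The Primary2 lines held 1228, 1111 and 1429 CPM and the Primary3 lines 1467, 927 and 1259. The Met1 lines held 797, 808 and 898 CPM, the Met2 lines 825, 942 and 881, and the Met3 lines 1028, 975 and 1046. All Met1 and Met2 lines lay below all Primary2 lines. Met3 lines lay below 2 of the Primary3 lines and above the shallow Primary3 replicate 2, whose 927 CPM rests on 291 counts (exact Poisson 95% interval 824 to 1040 CPM, counting error only). Group means were 834 ± 55.5 (SD, n = 3) in Met1, 882 ± 58.4 in Met2, 1016 ± 37.0 in Met3, 1256 ± 161 in Primary2 and 1218 ± 272 in Primary3. These sums are given as a description with no test. In bulk libraries, fewer cells with an open region and less opening per cell cannot be told apart.

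In CPM, the lower sums of the metastasis groups came mostly from the distal block, which held 81.6% of the window's mean signal. In the distal block the means were 652 ± 72.3 CPM in Met1, 710 ± 110 in Met2 and 836 ± 16.9 in Met3, against 1051 ± 132 in Primary2 and 999 ± 245 in Primary3 (SD, n = 3 each). In the proximal block every metastasis mean was also below both primary means, though metastasis and primary lines overlapped. The means there were 148 ± 33.3 CPM in Met1, 131 ± 65.4 in Met2, 115 ± 25.3 in Met3, 155 ± 10.4 in Primary2 and 150.4 ± 27.5 in Primary3. The middle block was lowest in Met1 (20.6 ± 4.81 CPM) and stood at 59.7 ± 2.39 in Met3, within the range of the Primary3 lines (57.7 ± 8.95).

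**Figure D2:**
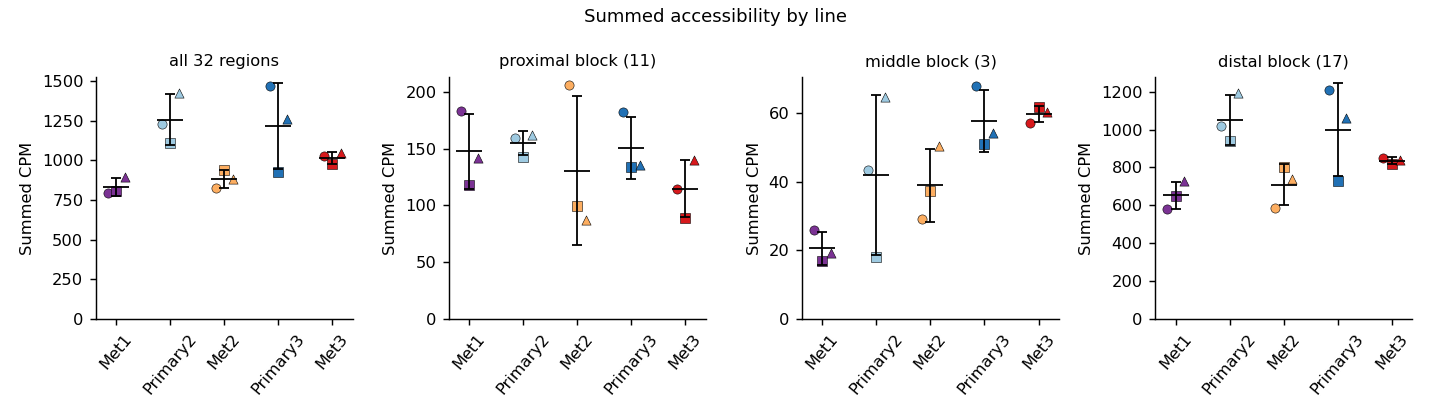
Summed CPM of each line over all 32 regions and over the proximal, middle and distal blocks, with the number of regions in brackets. Symbols are single lines (circle, square and triangle for replicates 1, 2 and 3), horizontal bars the mean and whiskers the SD of 3 lines, and over all 32 regions the Met1 and Met2 lines lie below the Primary2 lines.

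At peak_16843 (chromosome 11, 112642543 to 112644375, mm9), the region nearest the anchor of Sox9, accessibility was not called different in any of the 9 comparisons. Here and below, a region was called where its p-value, adjusted over all 39952 tested regions by the Benjamini-Hochberg method, was under 0.05. The Primary2 lines held 48.7, 36.7 and 41.9 CPM and the Primary3 lines 55.2, 57.3 and 40.8. The Met1 lines held 29.4, 34.6 and 43.6 CPM, the Met2 lines 37.9, 24.7 and 24.5 and the Met3 lines 24.3, 29.4 and 47.3. Met1 replicate 3, Met2 replicate 1 and Met3 replicate 3 lay within the primary range, and the 6 other metastasis lines lay below it. In rounds 2 and 3 together the log2 fold change of metastasis over primary was -0.56 ± 0.22 (SE; 95% interval -1.01 to -0.12; edgeR quasi-likelihood test, adjusted p = 0.0668). The call turned on single lines and on scaling, with an adjusted p of 0.0275 without Met2 replicate 1, 0.0264 without Met3 replicate 3 and 0.0436 with scaling by total counts.

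The other regions within 20 kb of the anchor were weaker. At peak_16844 (112645903 to 112646656), group means lay between 9.14 ± 1.26 CPM in Met1 and 13.5 ± 4.87 in Primary3 (SD, n = 3), and the log2 fold change was -0.26 ± 0.32 (edgeR adjusted p = 0.635). At peak_16845 (112649246 to 112649956) the Primary2 lines held 13.9, 16.4 and 28.2 CPM and the Met2 lines 8.63, 7.62 and 5.59, with no overlap. The Met3 lines held 12.8, 6.49 and 7.77 CPM there and the Primary3 lines 29.7, 0 and 12.4, where the 0 is that of the shallow replicate 2 and allows up to 9.56 CPM (3 counts). The log2 fold change at peak_16845 was -1.15 ± 0.42 with an edgeR adjusted p of 0.0553, just short of the threshold of 0.05. It was called under 3 of 8 other settings and in 3 of 15 fits that left out a line, among them the fit without Primary3 replicate 2.

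Metastasis and primary lines were next compared region by region in rounds 2 and 3 together, the rounds that held both origins. Accessibility was lower in metastasis lines at 7 of the 32 regions and higher at 0, where 8.98% of all 39952 tested regions were called lower and 11.2% higher, 20.2% in either direction. All 7 lay in the distal block, between 230.3 and 315.6 kb beyond the anchor, and 5 of them were among the 6 strongest members by total signal. The window's largest decreases on the log2 scale lay outside that block and were not called. These were peak_16845 (-1.15 ± 0.42), peak_16853 (-1.12 ± 0.45) and peak_16832 (-1.09 ± 0.40), weak regions with mean signals of 12.2, 7.47 and 8.44 CPM. The place of the calls therefore does not show that the decrease was limited to the distal block. Of the 32 regions, 25 had a fold change below 0, and the median log2 fold change was -0.40. Over all tested regions 18891 were below 0 and the median was 0.04. Every metastasis line lay below every primary line of its round at 2 members, peak_16876 and peak_16832, where 4.96% of tested regions did, and above at 0, where 5.77% did. Leaving out single lines gave 2 to 9 calls, with 2 without Primary3 replicate 1, 3 without Primary2 replicate 1 and 3 without Met3 replicate 2. There were 4 without Primary2 replicate 3, Primary3 replicate 3 or Met3 replicate 1. The share of all tested regions called in those fits is not given here.

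Regions elsewhere on chromosome 11 were also lower, on the median, in metastasis than in primary lines. The median log2 shift of the chromosome's regions was between -0.144 and -0.01 in the 9 metastasis lines and between 0.046 and 0.174 in the 6 primary lines. The other tested regions of chromosome 11 had a median log2 fold change of -0.11, with 152 called higher and 291 lower of 2630. With each library's chromosome medians removed, 3 of the 7 regions were still called (peak_16870, peak_16883 and peak_16887). The median of the window was then -0.24, against 0.04 over all tested regions, whose share of calls under that setting is not given here. The window of the same length before the Sox9 window held 8 regions, of which 7 were tested, 1 was called higher and 0 lower (median log2 fold change -0.09). That after it held 46 regions, of which 43 were tested, 2 were called higher and 5 lower (median -0.14).

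The largest called decrease was at peak_16887 (112955111 to 112956023). The Primary2 lines held 69.5, 62.9 and 127 CPM and the Primary3 lines 112, 105 and 92.7. The Met2 lines held 22.6, 65.9 and 36.3 CPM, the Met3 lines 57.7, 60.7 and 30.4 and the Met1 lines 27.2, 39.6 and 52.5. Met3 lay below Primary3 throughout, whereas Met2 replicate 2 lay above Primary2 replicate 2. Over rounds 2 and 3 the log2 value was -1.03 ± 0.24 (SE; edgeR adjusted p = 0.00401), a signal 2.04-fold lower in metastasis lines, and of nearly equal size in round 2 (-1.02 ± 0.35, adjusted p = 0.0796) and round 3 (-1.04 ± 0.34, adjusted p = 0.0546), though called in neither alone. It was called in rounds 2 and 3 together under all 8 other settings and in all 15 fits without a single line.

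At peak_16883 (112935467 to 112936213) the Primary2 lines held 54.4, 53.1 and 61.3 CPM and the Met2 lines 29.9, 40.4 and 32.2, with no overlap. The Primary3 lines held 90.2, 28.7 and 70.5 CPM and the Met3 lines 41.3, 41.6 and 34.3. Here the shallow Primary3 replicate 2 lay below the Met3 lines and the other Primary3 lines far above them. The log2 fold change was -0.75 ± 0.21 (edgeR adjusted p = 0.0122), and without Primary3 replicate 1 it was -0.61 and no longer called (adjusted p = 0.0706).

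At peak_16882 (112924228 to 112925015), the densest member, the Primary2 lines held 118, 107 and 156 CPM and the Primary3 lines 135, 108 and 129. The Met2 lines held 59.1, 65.5 and 113 CPM and the Met3 lines 82.0, 95.8 and 84.8. All Met3 lines were lower than all Primary3 lines, while Met2 replicate 3 lay within the Primary2 range. The log2 fold change was -0.60 ± 0.17 (edgeR adjusted p = 0.0144), with an adjusted p of 0.0567 without Primary2 replicate 3.

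Its neighbour peak_16881 (112922164 to 112922791) held 90.9, 78.8 and 86.3 CPM in Primary2 and 35.9, 42.6 and 69.9 in Met2, with no overlap. It held 95.5, 60.5 and 93.6 CPM in Primary3 and 74.7, 64.5 and 72.5 in Met3, which overlapped through Primary3 replicate 2. Over both rounds its log2 fold change was -0.54 ± 0.18 (edgeR adjusted p = 0.032). The call was not stable against single lines, since it was kept in 6 of 15 fits that left out a line.

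At peak_16880 (112912237 to 112914528), the second strongest member by total signal, the decrease was seen in round 2. The Primary2 lines held 168, 150.4 and 174 CPM and the Met2 lines 87.0, 106 and 95.1, with no overlap, and differed by -0.77 ± 0.20 on the log2 scale (edgeR adjusted p = 0.0238). The Primary3 lines held 151, 89.2 and 118 CPM and the Met3 lines 134, 99.2 and 130.1, which overlapped, at -0.03 ± 0.20. The difference between the rounds was 0.74 ± 0.29 (edgeR adjusted p = 0.697) and was not called. Over both rounds the log2 fold change was -0.40 ± 0.14 (adjusted p = 0.0489), and 13 of the 15 fits without a single line did not call it.

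The remaining called decreases were at weaker regions. At peak_16870 (112869773 to 112870842) the Primary2 lines held 43.4, 26.3 and 22.6 CPM and the Met2 lines 9.30, 15.7 and 19.6. The Primary3 lines held 34.6, 19.1 and 37.1 CPM and the Met3 lines 22.5, 10.3 and 20.1. Round 2 showed no overlap, and in round 3 the values of Met3 replicates 1 and 3 lay just above that of Primary3 replicate 2. In both rounds together the log2 fold change was -0.97 ± 0.29 (edgeR adjusted p = 0.0175), not called in 4 of the 15 fits without a single line.

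At peak_16876 (112899080 to 112900507) the Primary2 lines held 33.6, 32.8 and 30.7 CPM against 28.6, 17.0 and 17.5 in Met2. The Primary3 lines held 43.7, 35.0 and 32.3 CPM against 18.2, 14.1 and 28.5 in Met3. Each metastasis line thus lay below each primary line of its round. Over rounds 2 and 3 the log2 fold change was -0.76 ± 0.24 (edgeR adjusted p = 0.0272), not called in 7 of the 15 fits without a single line.

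**Figure D3:**
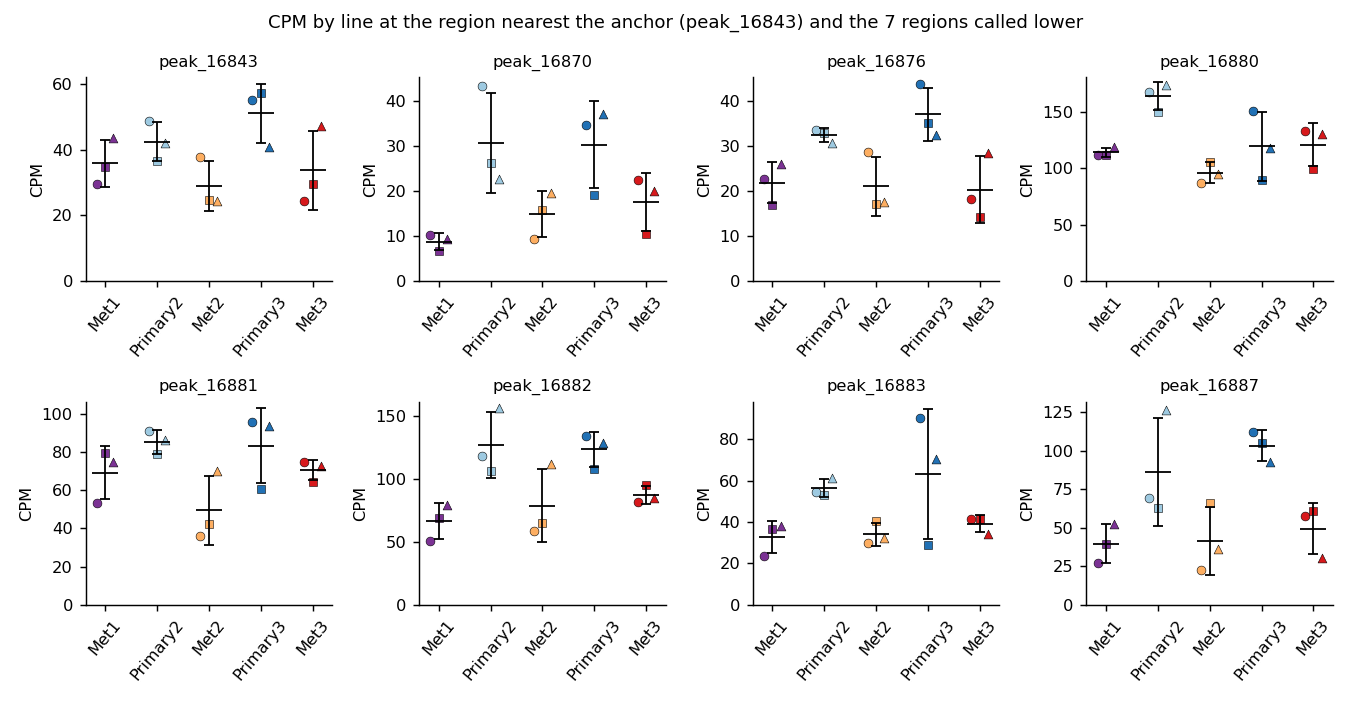
CPM of each line at peak_16843, the region nearest the anchor of Sox9, and at the 7 regions called lower in metastasis lines of rounds 2 and 3 together. Symbols are single lines (circle, square and triangle for replicates 1, 2 and 3), horizontal bars the mean and whiskers the SD of 3 lines, and at peak_16876 all Met2 and Met3 lines lie below the primary lines of their round.

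Among the members not called in this comparison, the strongest was peak_16888 (112962290 to 112965159). The Primary2 lines held 252, 254 and 317 CPM and the Primary3 lines 314, 172 and 304. The Met2 lines held 218, 272 and 221 CPM and the Met3 lines 255, 270.1 and 236. These overlapped in both rounds, and the difference was -0.15 ± 0.14 on the log2 scale (95% interval -0.45 to 0.15, edgeR adjusted p = 0.525). The strongest member thus differed by less than the spread among lines, while peak_16887, 6.3 kb before it, was called.

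At peak_16875 (112896086 to 112896861) the log2 fold change was -0.76 ± 0.29, as large as at called members, with an edgeR adjusted p of 0.0635. The Primary2 lines held 53.3, 42.1 and 57.3 CPM and the Primary3 lines 76.6, 60.5 and 60.0. The Met2 lines held 3.98, 40.4 and 24.5 CPM and the Met3 lines 62.0, 41.6 and 46.6. The 3.98 CPM of Met2 replicate 1, from 6 counts, was the lowest of all lines. At peak_16832 (112476859 to 112477380), the lone region before the gene, the Met2 lines held 1.99, 3.59 and 3.49 CPM against 6.95, 12.0 and 6.45 in Primary2, and the Met3 lines 6.07, 6.49 and 6.47 against 9.44, 12.7 and 10.3 in Primary3. Neither pair overlapped, but the log2 fold change of -1.09 ± 0.40 was not called (adjusted p = 0.058).

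The 7 members with a fold change above 0 were peak_16849, peak_16850, peak_16851, peak_16857, peak_16858, peak_16865 and peak_16878. Their log2 fold changes lay between 0.18 (peak_16850) and 0.88 (peak_16851), and none was called. At peak_16851 the Met2 lines held 39.2, 8.97 and 11.2 CPM, with Met2 replicate 1 above every other line. The same line was the highest of all 15 at peak_16847, with 39.8, 5.83 and 4.19 CPM in Met2 against 3.64, 2.29 and 5.18 in Met3.

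In round 2 alone, 1 of the 32 regions was called, peak_16880, which was lower in Met2 (2.77% of all tested regions were called lower and 3.44% higher). It was not called in 5 of 15 fits that left out a line, those without Met2 replicate 1 or 3 or any Primary2 line. All Met2 lines lay below all Primary2 lines at 11 members and above them at 0, where 13.1% and 12.2% of tested regions did. In round 3 alone edgeR called 0 members, where it called 5.64% of all tested regions higher and 4.52% lower. An unadjusted edgeR p under 0.05 was reached by 6 members (18.8%, against 24.4% of all tested regions), and DESeq2 called 1 of them, peak_16887. The share of all regions that DESeq2 called is not given, here or in the comparisons below. Met3 lines lay below all Primary3 lines at 5 members, where 13.3% of tested regions did, and above them at 1, where 18% did. The change in fold change from round 2 to round 3 was called by edgeR at 0 members and at 0% of all tested regions. It was called by DESeq2 at 0 members, and 2 members (6.25%, against 6.43% of all tested regions) had an unadjusted edgeR p under 0.05, so no region was shown to differ between the rounds.

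**Figure D4:**
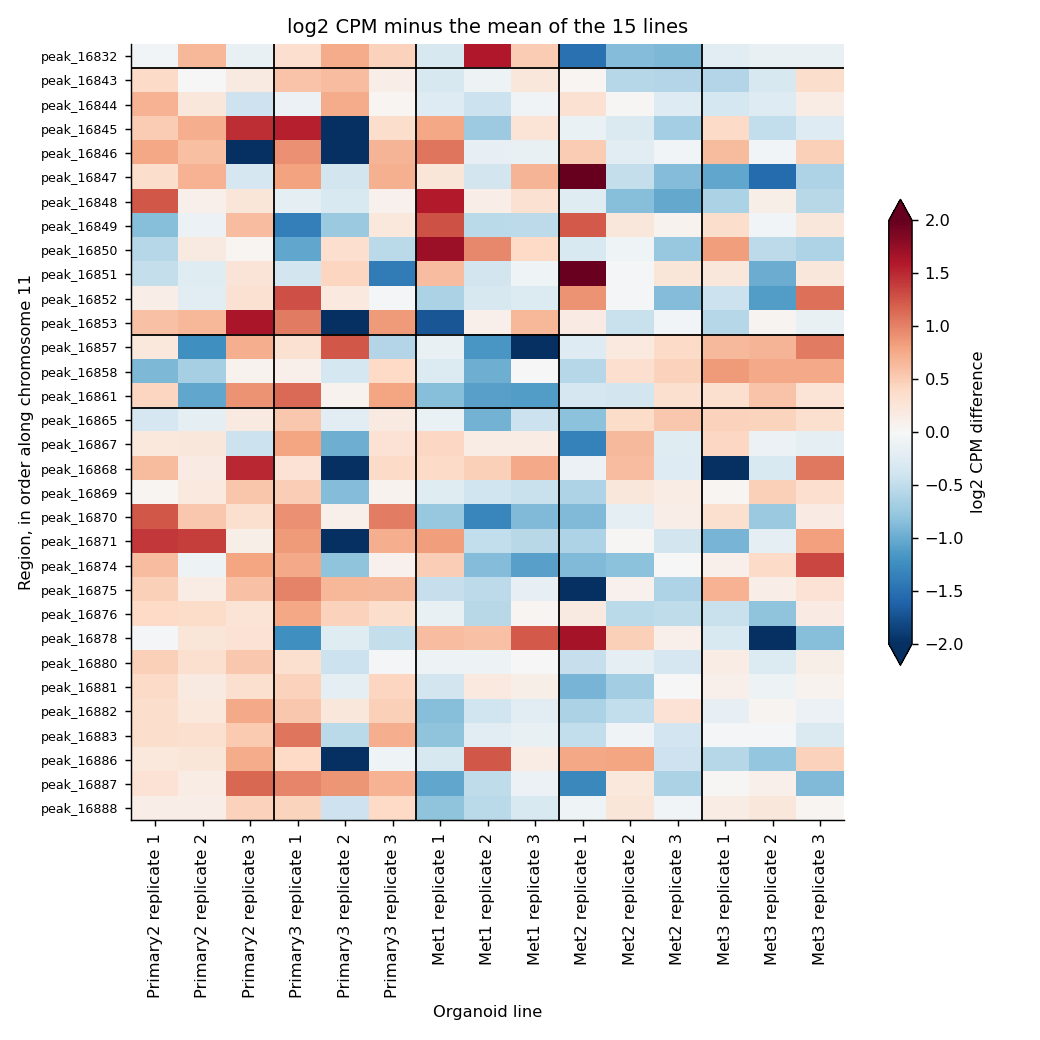
log2 CPM of each line minus the mean of the 15 lines, for the 32 regions in order along chromosome 11 (rows) and the 15 lines (columns), with horizontal lines between the 4 stretches of regions and vertical lines between groups. In the rows of peak_16880, peak_16882 and peak_16883 all 3 Primary2 columns are above 0 and all 3 Met1 columns below it.

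Met1 lines were compared with the mean of Primary2 and Primary3. Since no primary lines of round 1 were analysed here, origin and round cannot be told apart in this comparison, and it shares the primary lines with those above. In Met1, 6 of the 32 regions were called lower and 1 higher, where 4.94% of all tested regions were called lower and 4.53% higher. Met1 lines lay below all primary lines at 6 members, where 6.45% of tested regions did, and above all of them at 2, where 7.03% did. The 6 regions called lower were peak_16861 in the middle block and peak_16870, peak_16882, peak_16883, peak_16887 and peak_16888 in the distal block. Of these, peak_16861, peak_16883 and peak_16888 overlapped the primary lines.

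The largest decrease was at peak_16870, where the Met1 lines held 10.2, 6.66 and 9.25 CPM and every primary line held at least 19.1. The difference was -1.89 ± 0.39 on the log2 scale (edgeR adjusted p = 0.0031), a signal 3.70-fold lower, called under all 8 other settings and in all 15 fits without a single line. At peak_16888 the Met1 lines held 131, 158 and 187 CPM, and Primary3 replicate 2, at 172 CPM, was the only primary line within their range. The log2 fold change there was -0.76 ± 0.18 (edgeR adjusted p = 0.00915). This member, the strongest, was thus called in Met1 and not in the later metastasis lines.

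Values at peak_16882 were 50.9, 69.5 and 79.4 CPM in Met1, below every primary line, and differed from them by -0.90 ± 0.22 on the log2 scale (edgeR adjusted p = 0.00988). The log2 fold changes were -1.20 ± 0.31 at peak_16887 (edgeR adjusted p = 0.0157) and -0.88 ± 0.26 at peak_16883 (adjusted p = 0.0356), the latter not called in 8 of 15 fits that left out a line. The one region called higher was peak_16850 (112688921 to 112690368) in the proximal block, with 43.0, 25.1 and 16.7 CPM in Met1. Every primary line lay below these, between 5.59 and 15.9 CPM. Its log2 fold change of 1.47 ± 0.42 (edgeR adjusted p = 0.0279) was 1.08 and not called without the shallow Met1 replicate 1 (adjusted p = 0.141). The count of 7 calls depended on the Met1 lines, with 4 calls without Met1 replicate 1 and 1 call without Met1 replicate 2. How the calls over all tested regions moved in those fits is not given here, so this dependence is not shown to be particular to the window.

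Later metastasis lines were compared with Met1 to follow the window over the rounds, in comparisons that share the Met1 lines with the one above. In Met3, 3 of the 32 regions were called higher than in Met1 and 1 lower, where 5.98% of all tested regions were called higher and 3.56% lower. All Met3 lines lay above all Met1 lines at 9 members, where 15.9% of tested regions did, and below at 3, where 13.8% did. Both called increases above 1 on the log2 scale lay in the middle block. At peak_16857 (112763872 to 112764309) the Met1 lines held 7.93, 3.49 and 1.49 CPM, the Met2 lines 7.31, 10.3 and 11.9 and the Met3 lines 14.6, 14.9 and 19.4. The Met3 lines lay above all Met1 lines, and the fold change was 2.15 ± 0.64 on the log2 scale (SE, edgeR adjusted p = 0.0331), that is a 4.43-fold higher signal. The Met1 values there came from 7, 11 and 5 counts. The primary lines, at 10.4, 3.28 and 15.3 CPM in Primary2 and 11.2, 22.3 and 5.67 in Primary3, overlapped Met1 and Met3.

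At peak_16861 (112782037 to 112783573) the Met1 lines held 11.3, 9.52 and 9.25 CPM, the Met2 lines 16.6, 16.1 and 26.6 and the Met3 lines 26.7, 32.0 and 25.9, in groups that did not overlap between Met1 and either later group. Its log2 fold change in Met3 over Met1 was 1.52 ± 0.42 (edgeR adjusted p = 0.0242). The primary lines covered a wider range there, 29.0, 9.85 and 40.3 CPM in Primary2 and 47.6, 22.3 and 37.1 in Primary3, and the Met3 lines lay within it. The other middle region, peak_16858, held 6.79, 3.81 and 8.35 CPM in Met1 and 15.8, 14.9 and 14.9 in Met3, and its log2 fold change of 1.27 ± 0.50 was not called (adjusted p = 0.114).

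In the distal block peak_16888 was higher in Met3 than in Met1 by 0.66 ± 0.20 on the log2 scale (edgeR adjusted p = 0.0403), and all Met3 lines lay above all Met1 lines. That call was made in 4 of 15 fits that left out a line and under 5 of 8 other settings. The region called lower was peak_16878 (112904066 to 112904697), at 12.5, 12.1 and 19.4 CPM in Met1, 26.6, 11.2 and 8.39 in Met2 and 6.07, 1.14 and 3.88 in Met3, with a log2 fold change in Met3 over Met1 of -2.06 ± 0.60 (edgeR adjusted p = 0.0298). The lowest value, 1.14 CPM in Met3 replicate 2, came from 3 counts. The number of calls depended on single lines: 0 members were called without Met1 replicate 2 or without Met3 replicate 2. Without Met1 replicate 3, Met3 replicate 1 or Met3 replicate 3, 1 member was called. The share of all tested regions called in those fits is not given here, so the fall is not shown to be particular to the window.

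In Met2, 1 member was called against Met1, where 0.909% of all tested regions were called lower and 2.64% higher. It was the lone region before the gene, peak_16832, at 5.66, 24.1 and 10.7 CPM in Met1 and 1.99, 3.59 and 3.49 in Met2 (log2 fold change -2.19 ± 0.57, edgeR adjusted p = 0.0326). The Met1 lines were far apart, and without Met1 replicate 2 the log2 fold change was -1.48 and not called (adjusted p = 0.284). It was also not called without Met1 replicate 3 or without any one of the Met2 lines. Its Met3 lines, at 6.07, 6.49 and 6.47 CPM, lay between those of Met2 and Primary3.

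**Figure D5:**
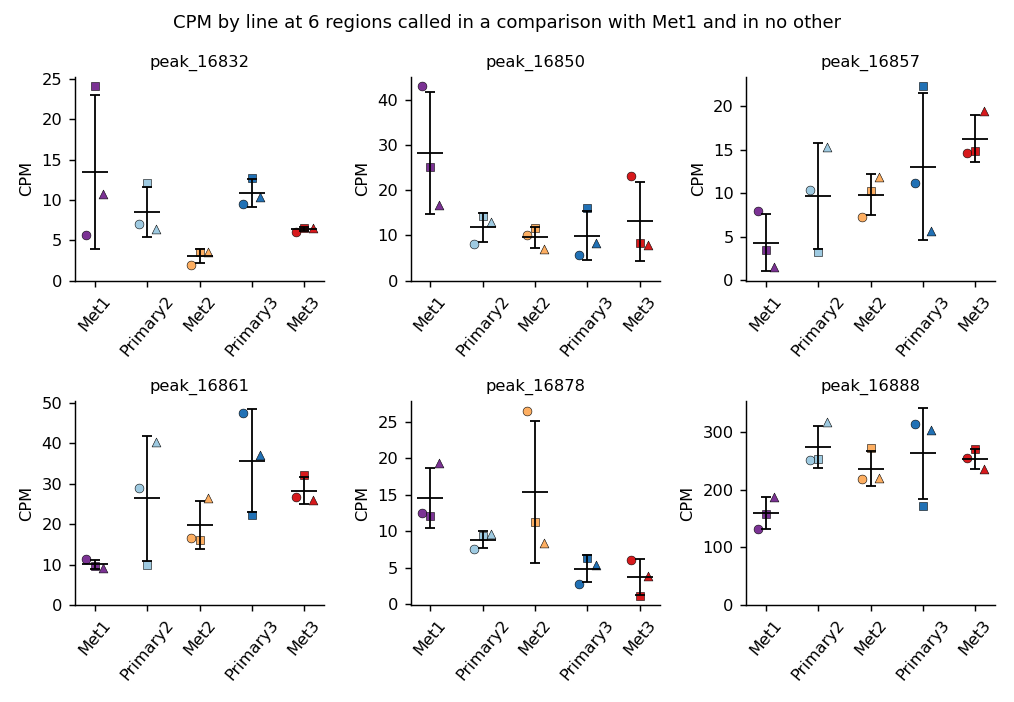
CPM of each line at the 6 regions called in a comparison with Met1 and in no comparison without it. Symbols are single lines (circle, square and triangle for replicates 1, 2 and 3), horizontal bars the mean and whiskers the SD of 3 lines; at peak_16857, peak_16861 and peak_16888 every Met3 line lies above every Met1 line.

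Later groups of the same origin were not called different in the window. Between Met3 and Met2 edgeR called 0 of the 32 members and 0% of all tested regions. DESeq2 called 0 members, and 4 (12.5%, against 7.32% of all tested regions) had an unadjusted edgeR p under 0.05. Between Primary3 and Primary2 edgeR called 0 members and 0% of all tested regions. DESeq2 called 0 members there, and 0 had an unadjusted edgeR p under 0.05, against 6.62% of all tested regions. At the strongest member, peak_16888, the log2 fold change was 0.10 ± 0.20 between the metastasis groups (95% interval -0.32 to 0.52) and -0.02 ± 0.20 between the primary groups (-0.44 to 0.40).

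Over all 9 comparisons, 13 of the 32 members were called at least once and 19 in none, where 28.6% of all tested regions were called at least once. Group means placed Met1 lowest at 11 members and Met2 lowest at 12, against 1 for Primary2, 4 for Primary3 and 4 for Met3. Primary2 was highest at 9 members, Primary3 at 8, Met3 at 6, Met1 at 5 and Met2 at 4. The same counts over all tested regions are not given here. The median log2 shift of chromosome 11 had a similar order, with means of -0.102 in Met2, -0.084 in Met1 and -0.032 in Met3. In Primary2 it was 0.087 and in Primary3 0.115. Members called in none included the weakest, peak_16846 (112667829 to 112668270), with a mean of 5.48 CPM, and peak_16869 (112862331 to 112863072), the eighth strongest by total signal. At peak_16869 the log2 fold change of metastasis over primary was -0.06 ± 0.21 (95% interval -0.49 to 0.37; edgeR adjusted p = 0.883).

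Taken over all pairs, the members did not vary together as 1 unit. Over the 15 lines the log2 CPM of pairs of members correlated at a median r of 0.14 (496 pairs, -0.72 to 0.85), which is a description over lines that share groups and differ in depth. Among the 6 strongest members every pair correlated positively, from 0.352 (peak_16881 with peak_16888) to 0.807 (peak_16883 with peak_16888). Many other members rest on few counts, and the effect of counting error on r was not tested. The shallow Primary3 replicate 2 held 0 counts at 6 members. Pairs of these correlated from 0.19 (peak_16846 with peak_16853) to 0.848 (peak_16868 with peak_16886), and the part of that 1 line in r was not tested. The members most like peak_16843 were peak_16876 (r = 0.851), peak_16852 (0.684), peak_16844 (0.566), peak_16882 (0.447) and peak_16847 (0.427). Its median r with the other 31 members was 0.11. In the rest of the table, among 19963 regions with at least the median signal, the median r was -0.01 and the highest were peak_90010 on chromosome 7 (73513914 to 73514680, r = 0.897) and peak_63057 on chromosome 3 (131436559 to 131437191, 0.894). Next came peak_73351 on chromosome 5 (65268642 to 65270864, 0.875), peak_52320 on chromosome 2 (30572715 to 30574826, 0.855) and peak_12798 on chromosome 11 (59778082 to 59779511, 0.855). These are the extremes of many correlations over 15 lines and are listed only as the closest patterns.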

How the data were processed

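Per the labels' protocols, organoids were dissociated, treated with TDE1 and sequenced from both ends. Build mm9 and the tools MACS2, bedtools, Bowtie, SAMtools and Picard stand in the submitters' processing notes, with no versions or roles. The sources used here do not say whether duplicates were removed or reads shifted for the transposase. The authors deposited raw counts for 1 set of regions, whose names refer to all samples, in every library. Region coordinates are printed as deposited.

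Counts were tested with edgeR 4.0.16 (limma 3.58.1, R 4.3.3). filterByExpr (minimum count 10, minimum total 15) kept 39952 of 43020 regions. A quasi-likelihood model with 5 group means, TMM scaling and robust dispersion estimates used all 15 libraries, and p-values were adjusted over all tested regions (Benjamini-Hochberg, called under 0.05). Standard errors are the fold change divided by the root of F. CPM used TMM-scaled totals, and log2 CPM a prior count of 2. Alternatives were DESeq2 1.42.0, scaling by total counts, no filter or a minimum count of 30, only the groups compared, a replicate block, chromosome medians removed, 13 libraries, and each line left out. The fit was tested on simulated data. Summaries and plots used Python 3.11.15 with pandas 2.3.3, scipy 1.17.1, matplotlib 3.10.9 and numpy 2.4.6.

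Members, comparisons and naming rules were chosen with earlier results of these data known. The rule named members within 20 kb of the anchor, the 6 strongest others, up to 8 called members of rounds 2 and 3 together, up to 3 called per direction in each other comparison, members beside the longest gap and window ends, and the 5 closest patterns. Values of peak_16851, peak_16847, peak_16858, peak_16875, peak_16846 and peak_16869, outside that rule, were added after values were seen. Sox9 had no entry among the promoter sequences used, so no sequence or motif is given.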

Additional observations from a re-analysis of the deposited data

Results flagged for a closer look

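For each of the 32 regions, the 9 metastasis lines and the 6 primary lines were each searched for a line far from the others on the log2 CPM scale (Dixon's ratio of gap to range). Of 64 such sets, 11 held such a line. Chance gives about 1 in 20, or 3.2, for normal values of equal precision. The lines differ in depth, so the excess over 3.2 cannot be read against chance here.

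Primary3 replicate 2, the shallowest line, accounted for 6 of the 11. It held 0 CPM at peak_16845 (other primary lines 12.4 to 29.7), peak_16853 (9.27 to 20.2), peak_16868 (11.5 to 30.7), peak_16871 (7.26 to 19.1) and peak_16886 (5.50 to 10.5), where 0 counts allow up to 9.56 CPM (3 counts). It held 22.3 CPM at peak_16869, from 7 counts, against 42.9 to 61.3.

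Met2 replicate 1 was far below the other metastasis lines at peak_16875 (3.98 CPM from 6 counts, others 24.5 to 62.0) and at peak_16867 (4.65 CPM from 7 counts, others 11.2 to 21.5). Met3 replicate 1 was low at peak_16868 (1.82 CPM from 3 counts, others 8.01 to 22.0). Among primary lines, Primary2 replicate 1 was high at peak_16848 (20.3 CPM, others 6.37 to 9.68) and Primary3 replicate 1 at peak_16852 (28.3 CPM, others 9.30 to 13.7).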

How the results depend on the processing

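The count of called members was 7 in rounds 2 and 3 together, and moved to 11 with scaling by total counts, 11 with 13 libraries and 3 with chromosome medians removed. The called set also lost peak_16880 with no filter and gained peak_16832 and peak_16845 in a fit of only the groups compared. With the replicate block the count stayed at 7, but peak_16832 was called and peak_16880 was not. In round 2 (1 call) the count was 2 with DESeq2, 2 with scaling by total counts, 2 with the stricter filter, 2 with 13 libraries and 0 with chromosome medians removed. In round 3 (0 calls) it was 1 with DESeq2, 2 with scaling by total counts, 1 with the stricter filter, 3 in a fit of only the groups compared and 1 with 13 libraries. For Met3 against Met1 (4 calls) it was 2 with scaling by total counts, 2 with the stricter filter and 2 with the replicate block, and for Met2 against Met1 (1 call) 0 with the stricter filter and 0 in a fit of only the groups compared. Over the 8 other settings it ran from 2 to 5 for Met3 against Met1 and from 5 to 8 for Met1 against primary (7 calls). Leaving out each line in turn gave 2 to 9 calls in rounds 2 and 3 together, 0 to 3 in round 2, 0 to 2 in round 3, 1 to 8 for Met1 against primary, 0 to 1 for Met2 against Met1, 0 to 4 for Met3 against Met1, and 0 for the 3 other comparisons. The cause was not tested. Shares of all tested regions called under these settings are not given here, so the moves in count are not shown to be particular to the window.

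Of 244 values of named regions under other settings, 221 kept direction and call, 18 lost the call, 4 gained it and 1 reversed. The reversal was at peak_16843, whose difference between the rounds of -0.02 became 0.0335 with 13 libraries. Of 465 values with a line left out, 364 kept both, 87 lost the call, 5 gained it and 9 reversed, all at peak_16843 in values never called, between the rounds (-0.35 to 0.20), for Met3 against Met1 (-0.43 to 0.0653) and for Met3 against Met2 (-0.10 to 0.44). The replicate number gave no pairing: same-numbered lines of different groups correlated between -0.214 and 0.156 in their deviations, above 0.1 in 2 of 30 pairs. With the replicate block, calls numbered 7 in rounds 2 and 3 together, 1 in round 2, 0 in round 3, 5 for Met1 against primary and 1 for Met2 against Met1. Scaling by total counts moved the median log2 fold change of all tested regions for Met3 against Met1 from -0.04 to -0.17, and that of the window from 0.10 to -0.04. The stricter filter left 18 of the 32 members with a value, and of the named values those of peak_16832, peak_16844, peak_16857 and peak_16878 are missing there. Fits of only the groups compared left 27 to 31 members in 3 comparisons. Depth limits weak members most, since 24 of the 32 regions held under 10 counts in Primary3 replicate 2.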
